A study of Mus musculus with 7 samples.

Results

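Mitochondrial ribosomal protein genes were followed in the kidneys of Slc7a9-/- mice with and without L-ergothioneine. They were taken as every protein-coding gene whose GENCODE M21 symbol begins with Mrpl or Mrps and a number, and 78 of the 45706 genes in the tables met that rule, 49 with an Mrpl and 29 with an Mrps symbol. All 78 had enough counts to be tested, among 15399 genes that did. The kidneys came from 7 male mice aged 6 months, all Slc7a9-/-. Slc7a9 encodes the light chain of the transporter that recovers cystine from urine, and its loss is a model of cystinuria. Of these mice, 3 were untreated and 4 received L-ergothioneine, a sulfur-containing antioxidant of the diet, at 16 mg/kg/day in drinking water. RNA was sequenced from whole frozen kidney, each library is titled as a numbered male, and no wild-type kidney was compared here.

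Mitochondria carry their own ribosome, which translates only the proteins encoded by mitochondrial DNA, all of them subunits of the respiratory chain or of ATP synthase. Its ribosomal RNAs come from mitochondrial DNA, while its proteins are made from nuclear genes in the cytosol and imported. Some of these proteins have a counterpart in the bacterial ribosome and others were added in the course of mitochondrial evolution. Proximal tubule cells, which make up much of the kidney, are rich in mitochondria and depend on them for transport.

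Of the 78 genes, 1 rose with ergothioneine and 0 fell at an adjusted p under 0.05 (edgeR quasi-likelihood test, Benjamini-Hochberg adjustment over all genes tested). The gene that rose was Mrps24, with a log2 fold change of 0.45. Over all genes tested, 7.16% were called, 3.58% higher and 3.57% lower, and in the 8041 genes whose mean level lay in the range of the mitoribosomal genes 7.26% were called, 4.15% higher and 3.11% lower. At an unadjusted p under 0.05, 6 members were higher and 3 lower, where 20.8% of all genes passed that limit, 10.4% in each direction. DESeq2 also called 1 member higher and 0 lower, where it called 4.96% of genes (2.37% higher, 2.6% lower), and so did limma-voom, where it called 6.58% (3.18% higher, 3.4% lower). The median log2 fold change was 0.03 over the members and -0.0031 over all genes tested, and 49 of the 78 members had a value above 0, against 49.3% of all genes.

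The members varied less between the groups than genes in general. The SD of their log2 fold changes was 0.12, against 0.32 over all genes tested and 0.22 over the genes of the same range of levels, a comparison given as a description without a test. The 95% interval of the difference lay wholly within 1.2-fold either way for 40 of the 78 members, within 1.5-fold for 77 and within 2-fold for all 78. Among the genes of the same range of levels, 37.6% lay within 1.2-fold, 91.7% within 1.5-fold and 98.2% within 2-fold. The exception at 1.5-fold was Mrps24. The median half-width of the interval was 0.19 on the log2 scale.

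**Figure D1:**
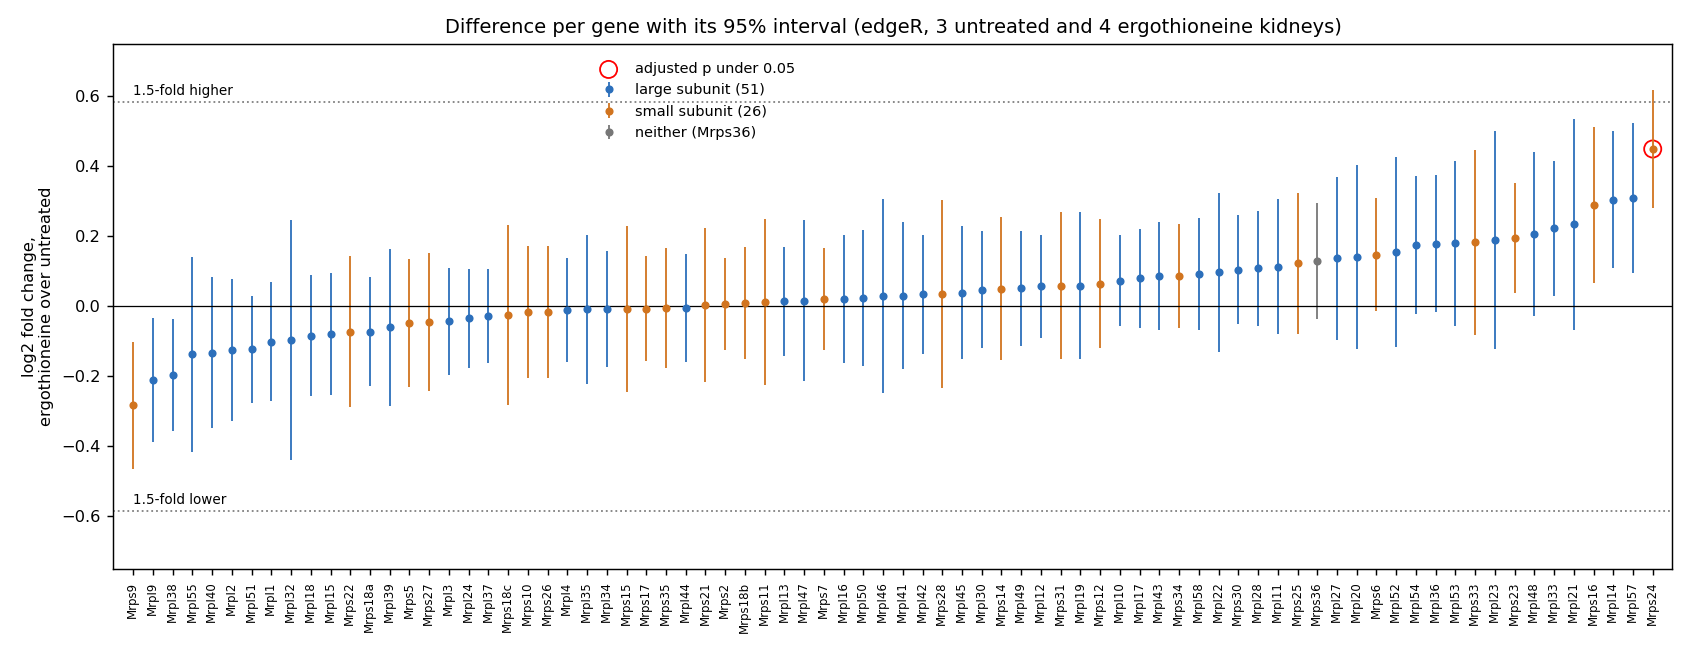
Log2 fold change of each of the 78 mitoribosomal protein genes, ergothioneine over untreated, as points with 95% intervals from the edgeR fit, ordered from lowest to highest, with dotted lines at 1.5-fold. The points run from -0.28 for Mrps9 to 0.45 for Mrps24, which alone passed the adjusted threshold, and 69 intervals hold 0.

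Libraries held between 14843899 and 19791575 counts, and each member had between 95 and 1760 counts in each library. Counts of Slc7a9 were 98, 95 and 105 without and 119, 166, 162 and 103 with ergothioneine, so the mutant locus still gave some counts in every library. Proximal tubule markers (Slc34a1, Lrp2, Slc5a2, Cubn and Slc22a6) summed to 14874 to 18153 CPM (counts scaled to equal library size) untreated and 14996 to 16458 treated, and 0 of 5 were called. The summed levels did not overlap for 5 other marker lists. Of all genes tested singly, 18.6% did not overlap between groups and 7.16% were called by edgeR, 3.58% higher and 3.57% lower. Distal tubule markers summed to 1073 to 1165 CPM untreated and 1292 to 1509 treated, with 0 of 2 called, and there Calb1 did not overlap (234 to 363 against 453 to 557) while Slc12a3 did (769 to 931 against 827 to 953). Collecting duct markers went from 252 to 277 untreated to 286 to 349 treated, with 1 of 4 called higher, and podocyte markers from 77.4 to 83.5 to 83.8 to 103, with 1 of 2 called higher. Markers of fat, which in its brown form is rich in mitochondria, summed to 56.0 to 65.7 CPM untreated and 12.5 to 21.3 treated, with 7 lower of 7 tested and 9 listed. Skeletal muscle markers stood near 0 in every library (0.057 to 0.192 CPM untreated, 0 to 0.055 treated), and none had enough counts to be tested. Loop of Henle markers overlapped (3757 to 4138 CPM against 4125 to 4784), with 1 of 2 called higher, and so did leukocyte markers (102 to 107 against 96.1 to 110), with 1 of 3 tested called lower. The part of these cell types in the results on mitoribosomal genes was not tested. In whole tissue, fewer cells of a type and less RNA per cell cannot be told apart.

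The libraries untreated 1 and untreated 2 stood apart in the deposited TPM (counts per transcript length, scaled to a fixed total in each library). Short non-coding RNAs took 12.2% and 16.2% of TPM there and 37.5% to 48.7% in the other 5 libraries. They were taken as all genes not annotated as protein-coding with a median transcript under 400 nt. In the counts their share was 0.428% and 0.571% in those libraries and 1.83% to 2.79% in the others. Differences between groups were therefore measured on counts, and TPM was used to order genes by level within libraries. Both libraries set apart were untreated, and the split remained in the counts. Its part in the fold changes measured on counts was not tested.

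Levels per transcript length spanned a 47.0-fold range. The mean deposited TPM over the 7 libraries ran from 4.03 for Mrpl19 to 190 for Mrps21, with a median of 28.6. It was under 10 for 7 genes, 10 to 50 for 59 and above 50 for 12. The median was 28.8 in the 51 genes of the large subunit and 27.3 in the 26 of the small subunit.

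The 4 highest members all have bacterial counterparts. Mrps21, of the small subunit, had 253, 280 and 138 TPM untreated and 188, 131, 165 and 171 treated. Mrpl33 of the large subunit followed with 103, 113 and 70.3 untreated and 99.9, 88.2, 76.3 and 70.2 treated. Mrpl12, the stalk protein that contacts translation factors, had 110, 119 and 67.8 untreated and 79.4, 74.5, 82.1 and 71.3 treated, and Mrpl34, a short protein of the large subunit, had 125, 109 and 69.4 untreated and 87.1, 70.8, 68.1 and 73.0 treated. Apart from Mrps21, which was above the others in every library, these genes did not differ in mean level beyond their spread, and Mrpl30 (mean 85.6 TPM) and Mrps6 (84.7 TPM) stood level with Mrpl34 (86.2 TPM). In each of the 4 genes the TPM of untreated 1 and untreated 2 exceeded that of untreated 3, the libraries in which short RNAs took less of the total.

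At the bottom of the order by TPM stood 4 genes of the large subunit. Mrpl19 had 4.82, 5.92 and 2.84 TPM untreated and 4.80, 3.43, 3.43 and 2.96 treated. Mrpl35 had 8.45, 7.29 and 5.24 untreated and 4.72, 5.02, 5.59 and 5.76 treated, and Mrpl11, a protein at the base of the stalk, had 8.01, 7.76 and 5.11 untreated and 6.13, 5.15, 6.06 and 5.58 treated. Mrpl57, a protein found only in mitochondrial ribosomes, had 10.0, 9.02 and 6.76 untreated and 8.37, 7.38, 9.71 and 7.25 treated. Mrpl57 exceeded Mrpl35 and Mrpl11 in each of the 7 libraries, while Mrpl35 and Mrpl11 changed places between libraries. Most proteins of the assembled ribosome are present in a single copy, and these levels per transcript length were far from equal. By CPM the order differed. Means over the 7 libraries ran from 6.86 for Mrps28 to 87.8 for Mrpl12, with a median of 23.6. Mrpl19, Mrpl35, Mrpl11 and Mrpl57 had 16.79, 20.97, 16.56 and 17.55 CPM. Mrpl36, with a median transcript of 717 nt against 707 nt for Mrpl35, had 16.69 CPM but 26.8 TPM, against 6.01 TPM for Mrpl35. The part of the lengths assigned to each gene in the order by TPM was not tested.

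**Figure D2:**
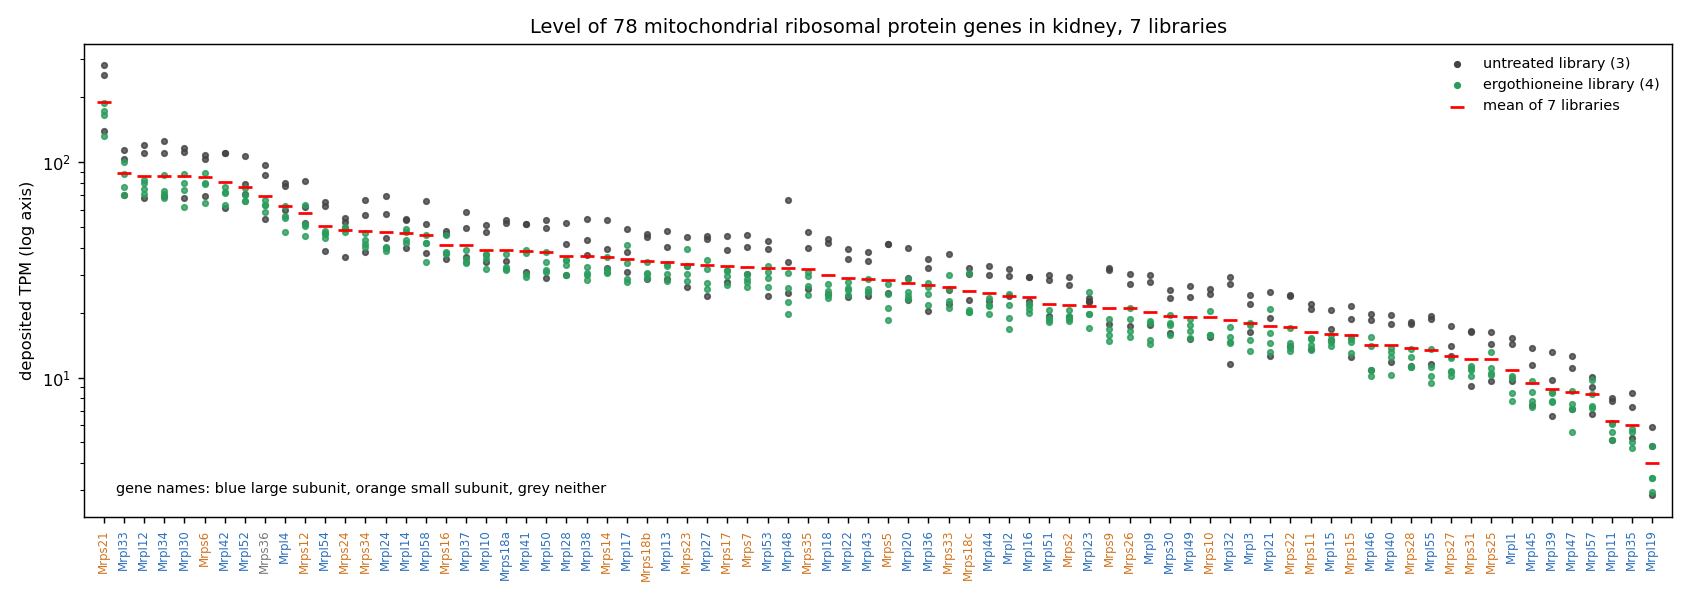
Deposited TPM of each of the 78 genes on a log axis, 1 point per library (3 untreated, 4 ergothioneine), with the mean of the 7 libraries as a bar, ordered by that mean. Mrps21 stands highest at a mean of 190 TPM and Mrpl19 lowest at 4.03, and untreated 1 and untreated 2 give most of the upper points.

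Mrps24 encodes a small-subunit protein whose bacterial counterpart lines the site where mRNA enters the ribosome. On chromosome 11 (5703983 to 5715680, minus strand, GRCm38) it had 22.3, 23.1 and 25.3 CPM untreated and 29.8, 33.4, 33.9 and 31.6 treated, with CPM on TMM-scaled library sizes. Every treated library lay above every untreated one. The fold change was 1.37 (95% interval 1.22 to 1.53), a log2 fold change of 0.45 ± 0.08 (SE, adjusted p = 0.00195 by edgeR). With each library left out in turn it lay between 0.41 and 0.50, with adjusted p between 0.00222 and 0.0144. Without untreated 1 and untreated 2, which leaves 1 untreated library, it was 0.35 with an adjusted p of 0.109, so the call was lost.

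Library names fall into 2 ranges of numbers, with untreated 1, untreated 2 and ergothioneine 1 in the higher range. Within that range Mrps24 had 22.3 and 23.1 CPM untreated and 29.8 treated, and within the lower range 25.3 untreated against 33.4, 33.9 and 31.6. With the range as a block in the fit, the log2 fold change was 0.39 with an adjusted p of 0.00827. On the deposited TPM, Mrps24 had 52.6, 54.7 and 36.2 untreated and 49.1, 47.1, 49.7 and 48.9 treated, and the groups overlapped (log2(TPM + 1) difference 0.05, limma adjusted p = 0.85). After the short non-coding RNAs were taken out and TPM rescaled, the values were 59.9, 65.2 and 70.4 untreated and 78.5, 89.9, 87.7 and 94.995 treated, a difference of 0.42 with an adjusted p of 0.0426.

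A GENCODE transcript of Mrps24 begins within Urgcp, its upstream neighbour on the same strand, so reads could be shared between them. Urgcp itself had a log2 fold change of -0.01 ± 0.07 (SE, adjusted p = 0.978 by edgeR). Of the 78 genes, 42 overlap another annotated gene, 12 of them on the same strand and 4 with a coding gene there. Those 4 were Mrps24 with Urgcp, Mrps6 with Slc5a3, Mrps34 with Nme3 and Mrpl53 with Gm42688, and counts of such pairs are uncertain. Mrps6 and Slc5a3, an inositol transporter, had log2 fold changes of 0.15 (adjusted p = 0.287) and -0.25 (adjusted p = 0.213).

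The small subunit held 26 members, of which 1 was called higher, Mrps24, and 0 lower, with a median log2 fold change of 0.01. At an unadjusted p under 0.05, 3 were higher and 1 lower, where 10.4% of all genes tested passed in each direction. Mrps16, a protein with a bacterial counterpart whose loss in patients impairs the respiratory chain, had 9.80, 10.3 and 11.5 CPM untreated and 13.7, 12.5, 12.4 and 12.9 treated. The groups did not overlap, but its log2 fold change of 0.29 ± 0.11 (SE) did not pass (adjusted p = 0.113). Mrps23, specific to the mitochondrial ribosome, had 22.8, 24.8 and 24.2 CPM untreated and 26.6, 28.1, 27.8 and 27.1 treated. Its groups did not overlap either, at a log2 fold change of 0.20 ± 0.07 (SE, adjusted p = 0.132).

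In the other direction stood Mrps9, the counterpart of a bacterial protein that reaches the peptidyl-tRNA site. It had 29.4, 33.4 and 26.7 CPM untreated and 25.8, 24.1, 25.5 and 22.7 treated, with every treated library below the untreated ones. The log2 fold change of -0.28 ± 0.09 (SE) missed the threshold at an adjusted p of 0.0569. Without untreated 3 it was -0.35 with an adjusted p of 0.0273, in a fit that called 2.59% of all genes lower. Mrps9 was the only member called lower when single libraries were left out. Mrps22, whose loss in patients also impairs the respiratory chain, had 17.1, 18.4 and 15.5 CPM untreated and 14.9, 15.4, 18.5 and 15.8 treated (log2 fold change -0.07), and the groups overlapped. Mrps5, which lies near the decoding site, had 33.8, 34.2 and 34.8 untreated and 35.7, 29.95, 37.6 and 29.6 treated, with the treated libraries on both sides of the untreated ones.

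The decoding protein Mrps12, whose bacterial counterpart is the site of streptomycin resistance, had 19.0, 17.1 and 19.0 CPM untreated and 19.9, 19.1, 19.98 and 17.99 treated. Mrps34, needed for a stable small subunit, had 33.2, 29.95 and 29.9 untreated and 32.99, 33.6, 33.3 and 32.1 treated. Mrps21, the most abundant member per length, had 31.9, 35.0 and 27.8 untreated and 34.4, 25.9, 32.2 and 34.2 treated. All 3 overlapped between groups, with log2 fold changes of 0.07, 0.09 and 0.00.

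The large subunit held 51 members, of which 0 were called in either direction by edgeR, with a median log2 fold change of 0.04. At an unadjusted p under 0.05, 3 were higher and 2 lower, where 10.4% of all genes tested passed in each direction. Mrpl57 had 15.4, 15.0 and 15.9 CPM untreated and 18.3, 17.7, 22.6 and 17.9 treated, so ergothioneine 3 stood above the other treated libraries. Its log2 fold change was 0.31 ± 0.10 (SE, adjusted p = 0.077). Mrpl14, which lies where the subunits meet, had 13.6, 14.7 and 15.8 CPM untreated and 17.9, 17.4, 19.3 and 18.2 treated, and the groups did not overlap. Its log2 fold change was 0.30 ± 0.09 (SE, adjusted p = 0.057).

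Mrpl33 had 19.2, 22.8 and 22.4 CPM untreated and 27.5, 26.01, 22.8 and 23.8 treated, and Mrpl21, with a bacterial counterpart, had 8.39, 6.37 and 7.503 untreated and 10.0, 9.51, 7.36 and 8.07 treated. Both overlapped between groups, at log2 fold changes of 0.22 (adjusted p = 0.167) and 0.23 (adjusted p = 0.388). Mrpl9, with a bacterial counterpart, had 29.7, 29.9 and 26.8 CPM untreated and 26.004, 22.4, 27.2 and 24.2 treated (log2 fold change -0.21, adjusted p = 0.155). Mrpl38, specific to mitochondria, had 44.4, 38.7 and 44.4 untreated and 38.0, 38.8, 38.4 and 33.3 treated (log2 fold change -0.20, adjusted p = 0.14). Mrpl55 had 7.93, 8.24 and 7.76 untreated and 8.18, 7.64, 6.08 and 7.09 treated, with overlapping groups.

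The stalk, which recruits translation factors, was measured through 3 genes. Mrpl12, the most abundant member by CPM, had 83.4, 95.6 and 78.6 CPM untreated and 86.0, 89.0, 95.7 and 86.6 treated. Mrpl10, which anchors it, had 54.1, 54.7 and 56.7 untreated and 57.2, 59.7, 60.2 and 55.2 treated, and Mrpl11 had 15.6, 16.5 and 15.3 untreated and 17.1, 15.7, 17.998 and 17.6 treated. The groups overlapped in each, and the log2 fold changes were 0.06, 0.07 and 0.11. For Mrpl12 the 95% interval of the fold change was 0.940 to 1.15.

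Mrpl58, a peptidyl-tRNA hydrolase that frees stalled ribosomes, had 27.3, 25.1 and 25.1 CPM untreated and 27.6, 26.2, 29.1 and 27.5 treated. Mrpl44, a member with a ribonuclease-like fold, had 27.2, 27.3 and 29.6 untreated and 28.7, 28.6, 27.5 and 26.9 treated. Mrpl34, Mrpl35 and Mrpl19, which stood at the ends of the order by TPM, had log2 fold changes of -0.01, -0.01 and 0.06. In all 5 of these genes the groups overlapped, with adjusted p between 0.548 for Mrpl58 and 0.984 for Mrpl44.

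**Figure D3:**
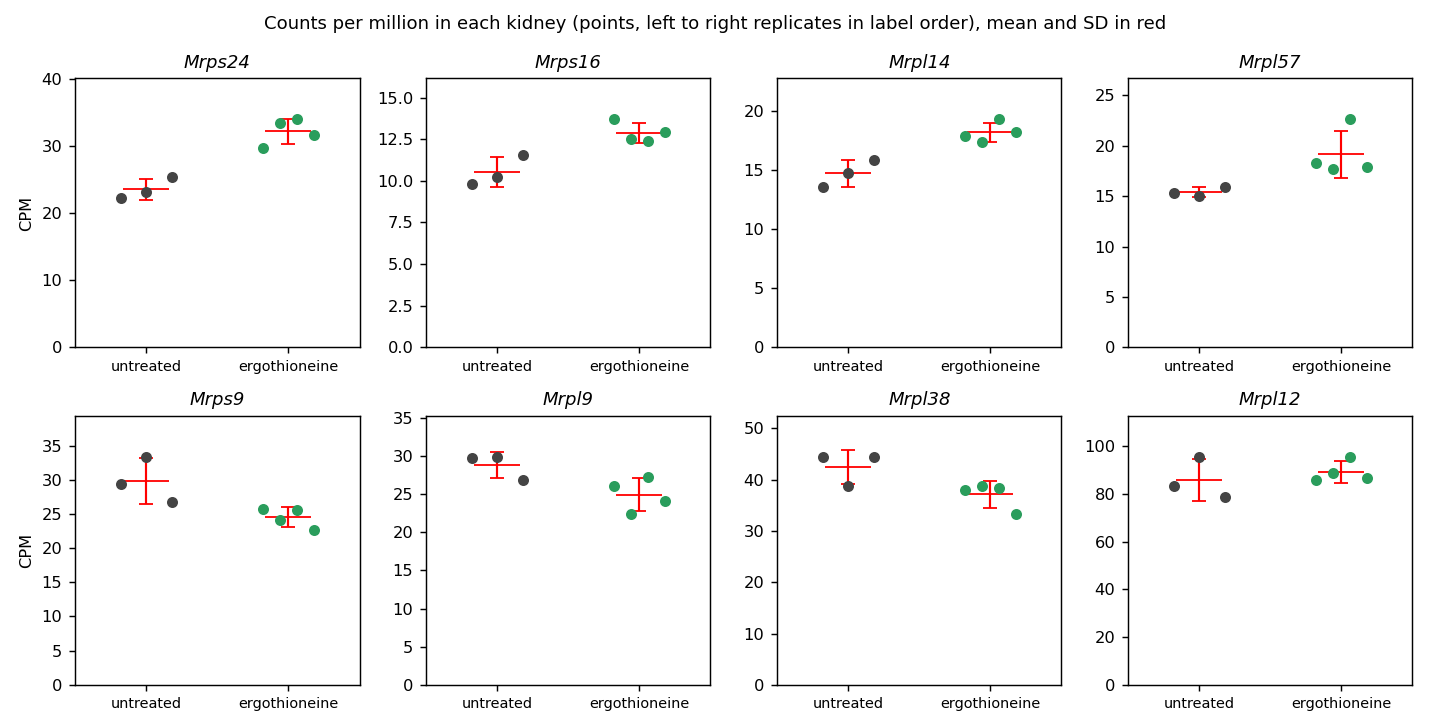
CPM in each of the 7 libraries for 8 mitoribosomal protein genes, with group mean and SD in red and each axis starting at 0. Mrps24, Mrps16, Mrpl14 and Mrpl57 have every treated point above the untreated ones, Mrps9 has every treated point below, and Mrpl9, Mrpl38 and Mrpl12 overlap; only Mrps24 passed the adjusted threshold.

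Some symbols do not match the subunit in which the protein is found. Of 3 genes related to a single bacterial protein, Mrps18a belongs to the large subunit and Mrps18b and Mrps18c to the small one. Mrps18a had 24.99, 26.1 and 25.1 CPM untreated and 24.9, 24.2, 23.4 and 24.1 treated, with every treated library below the untreated ones but a log2 fold change of only -0.07 (adjusted p = 0.653). Mrps18b had 26.1, 27.1 and 25.3 untreated and 26.9, 25.3, 25.2 and 27.9 treated, and Mrps18c, with fewer counts, had 8.39, 8.38 and 7.89 untreated and 7.38, 7.64, 8.71 and 8.62 treated. Their log2 fold changes were 0.01 and -0.02. The groups of both overlapped.

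Mrps30 also belongs to the large subunit, and had 24.9, 24.7 and 24.3 CPM untreated and 27.4, 27.0, 26.7 and 25.03 treated. The lowest treated library stood just above the highest untreated one, and the log2 fold change of 0.11 did not pass (adjusted p = 0.474). Mrps36 is now counted to the oxoglutarate dehydrogenase complex of the citric acid cycle and to neither subunit. It had 24.5, 28.6 and 24.5 CPM untreated and 28.0, 28.4, 29.2 and 27.6 treated, with overlapping groups (log2 fold change 0.13, adjusted p = 0.38).

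Counted over all members, every treated library lay above every untreated one in 7 genes, where 9.46% of all genes tested did so. They were Mrps24, Mrpl57, Mrpl14, Mrps16, Mrps23, Mrps30 and Mrpl43. Every treated library lay below in 3 genes, Mrps9, Mrps18a and Mrpl40, where 9.11% of all genes did so. In either direction, 18.6% of all genes did so. The 7 and 3 members of 78 did not exceed these shares, and Mrpl43 and Mrpl40, proteins specific to the mitochondrial ribosome, had adjusted p of 0.567 and 0.525.

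By evolutionary origin, the 46 members with a bacterial counterpart had a median log2 fold change of 0.02, with 1 called higher and 0 lower by edgeR. The 31 specific to mitochondria had a median of 0.04, with 0 called in either direction. At an unadjusted p under 0.05 the first class had 4 higher and 2 lower, and the second 2 higher and 1 lower. Over all genes tested, 10.4% passed that limit in each direction. Mrps18a and Mrps18b, though related to a bacterial protein, were counted to the second class. The difference between the classes was not tested.

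Members with shorter transcripts had higher fold changes on average. Across the 78 genes, Spearman's rho between log2 fold change and median transcript length was -0.34 and Pearson's r -0.26, against a rho of -0.08 over 8015 genes of the same range of levels, given as a description since all genes share the same 7 libraries. The 39 members with a median transcript of at most 848 nt had a median log2 fold change of 0.07 with 29 above 0, and the 39 longer ones 0.01 with 20 above 0. Whether the split of the libraries in short non-coding RNA has a part here was not tested.

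Libraries differed little in their total of mitoribosomal transcripts. The 78 genes took 0.190%, 0.201% and 0.189% of counts without ergothioneine and 0.199%, 0.195%, 0.202% and 0.195% with it, and the exact binomial 95% interval of each, which covers counting error only, was 0.188% to 0.192% in untreated 1 and 0.199% to 0.204% in ergothioneine 3. The groups overlapped, since untreated 2 exceeded 3 of the 4 treated libraries. Single members followed the library in part. Ergothioneine 3 held the highest value of 22 members, untreated 2 of 19 and ergothioneine 1 of 17, while untreated 3 held the lowest of 23 and untreated 1 of 17.

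**Figure D4:**
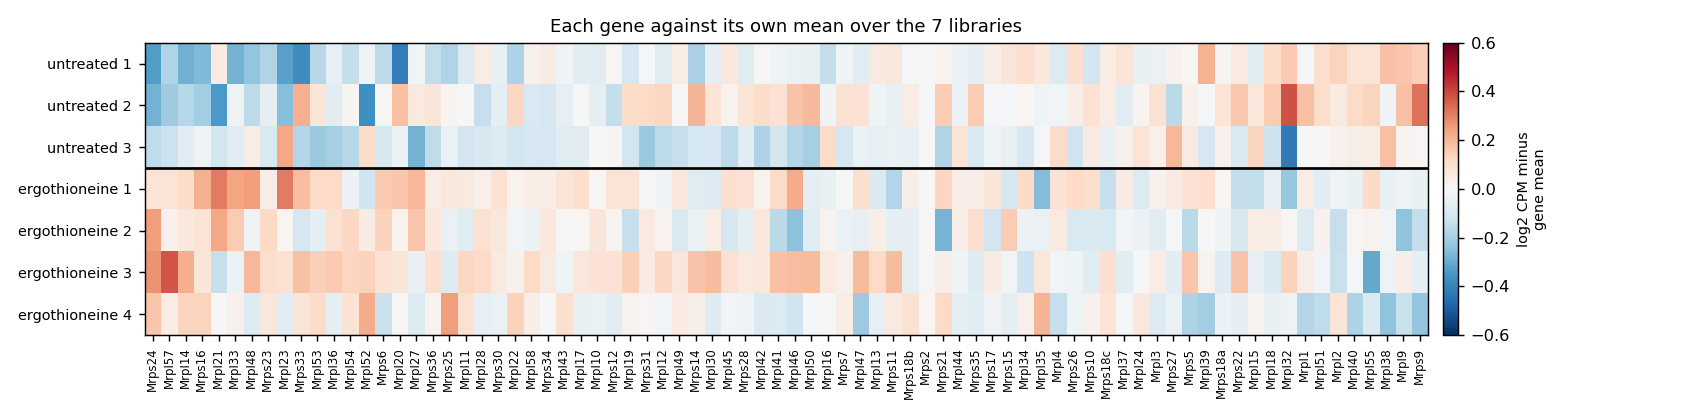
Log2 CPM of each of the 78 genes (columns, ordered by log2 fold change) in each library (rows) minus the mean of that gene over the 7 libraries. The untreated rows are mostly blue and the treated rows mostly red at the left end, with Mrps24 first, and the middle columns hold both colours within each group. The row medians run from -0.07 in untreated 3 to 0.06 in ergothioneine 3.

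Promoter windows of 280 bases (250 before and 30 after the RefSeq start, GRCm38.p6) were found for 69 of the 78 genes. All motifs were searched on both strands. The letters GCGCANGCG, bound by NRF1, a factor known for control of nuclear genes of mitochondria, stood in 16 windows (23.2%), against 6.20% of all 27018 windows and 8.44% of 17486 at coding genes. The letters CCGGAAG of the ETS family, to which the factor GABPA belongs, stood in 23 (33.3%), against 8.70% and 11.4%, and AAGATGGC of YY1 in 8 (11.6%), against 2.38% and 2.53%. The letters GGGCGG of the SP family stood in 34 (49.3%), against 34.9% and 45.1%, CCAAT of NF-Y in 25 (36.2%), against 36.6% and 38.1%, and the E-box CACGTG in 5 (7.25%), against 6.90% and 7.58%. A match is a description of the letters and no evidence of binding.

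The 3 windows shown here were chosen because they belong to the gene that rose and to the lowest log2 fold changes of each subunit among genes whose window is free of exons of other genes. Capitals mark matches to GCGCANGCG and GGGCGG on either strand. None of these windows held CCGGAAG. Mrps24 lies at chr11:5707672-5707951 on the minus strand, Mrps9 at chr1:42850983-42851262 on the plus strand and Mrpl9 at chr3:94443086-94443365 on the plus strand.
Mrps24: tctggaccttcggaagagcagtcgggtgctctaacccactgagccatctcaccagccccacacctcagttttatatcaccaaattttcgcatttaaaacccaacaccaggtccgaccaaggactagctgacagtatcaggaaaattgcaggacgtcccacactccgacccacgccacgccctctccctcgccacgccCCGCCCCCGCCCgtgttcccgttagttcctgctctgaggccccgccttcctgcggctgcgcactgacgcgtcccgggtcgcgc
Mrps9: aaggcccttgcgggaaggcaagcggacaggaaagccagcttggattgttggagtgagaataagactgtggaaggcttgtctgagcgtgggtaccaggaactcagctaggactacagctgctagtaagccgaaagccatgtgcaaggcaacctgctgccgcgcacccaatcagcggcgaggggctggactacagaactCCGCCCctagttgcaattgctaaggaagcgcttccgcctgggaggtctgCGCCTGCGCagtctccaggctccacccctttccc
Mrpl9: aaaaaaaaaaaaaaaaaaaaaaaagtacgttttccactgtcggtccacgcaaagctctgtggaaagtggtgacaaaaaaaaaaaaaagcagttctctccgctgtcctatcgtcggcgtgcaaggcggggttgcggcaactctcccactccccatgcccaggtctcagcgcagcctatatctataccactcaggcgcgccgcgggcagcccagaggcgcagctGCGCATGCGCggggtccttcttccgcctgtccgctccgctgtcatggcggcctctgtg
Mrps24 held adjacent GGGCGG letters, read on the other strand, and no NRF1 letters, while Mrps9 and Mrpl9 each held NRF1 letters close to the start. Over all 69 windows the median log2 fold change was 0.02 in the 16 genes with NRF1 letters and 0.03 in those without, and 0.08 in the 23 genes with ETS letters and 0.03 in those without. With and without the letters it was 0.02 and 0.05 for the SP family, 0.02 and 0.04 for YY1, 0.03 and 0.03 for NF-Y and -0.02 and 0.03 for the E-box.

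Many members share a promoter region with a gene on the other strand. A coding gene on the other strand began within 1000 bp upstream for 18 of the 78 (23.1%), against 6.76% of 21519 coding genes. The distances ran from 26 to 935 bp with a median of 82. Of these partners 17 were tested and 0 were called by edgeR, with log2 fold changes of -0.34 to 0.18 and a lowest adjusted p of 0.178. Pairs that overlap each other at their starts were not counted in either share, Mrps11 with Mrpl46 among them. Mrps12 lies 172 bp from Sars2, the mitochondrial seryl-tRNA synthetase. Sars2 had 10.2, 7.37 and 10.1 CPM untreated and 11.01, 9.92, 10.5 and 10.5 treated, a log2 fold change of 0.18 (adjusted p = 0.483) beside 0.07 for Mrps12.

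Mitoribosomal proteins whose symbols lie outside the rule were measured beside the members. Of Dap3, Ptcd3, Chchd1, Aurkaip1 and Gadd45gip1, 0 of 5 were called by edgeR, with 1 (Chchd1) at an unadjusted p under 0.05 and a median log2 fold change of 0.06. Of 25 genes for mitoribosome assembly and ribosomal RNA modification, 0 were called, with a median of 0.02, and 1 was higher and 1 lower at an unadjusted p under 0.05. Of 15 translation factors 0 were called (median -0.04), of 17 mitochondrial aminoacyl-tRNA synthetases 0 (median -0.06) and of 9 genes for mitochondrial DNA transcription and replication 0 (median -0.03). At an unadjusted p under 0.05 these lists had 1, 2 and 0 genes, where 20.8% of all genes tested passed.

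The RNAs on which the proteins assemble are the mitochondrial ribosomal RNAs, though ribosomal RNA was depleted before sequencing and these counts are what remained. The small-subunit RNA mt-Rnr1 had 805, 1069 and 582 CPM untreated and 838, 457, 468 and 861 treated, and the large-subunit RNA mt-Rnr2 had 487, 672 and 297 untreated and 494, 173, 214 and 513 treated. Both spread widely within each group, and neither passed the test (log2 fold changes of -0.32 ± 0.36 and -0.48 ± 0.53, adjusted p = 0.701 for both).

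Among 9 regulators of mitochondrial biogenesis 1 fell, Pprc1, a coactivator related to the one encoded by Ppargc1a, with 23.1, 25.7 and 25.6 CPM untreated and 18.6, 19.9, 22.1 and 18.3 treated (log2 fold change -0.33, adjusted p = 0.0306). Over all genes tested, 3.57% were called lower. The value of Pprc1 turned to 0.09 on rescaled TPM. Ppargc1a, the main coactivator of the programme, had 125, 147 and 122 CPM untreated and 147, 162, 145 and 139 treated (log2 fold change 0.18, adjusted p = 0.154), and the groups overlapped. Nrf1, Gabpa, Tfam and Polrmt act on nuclear promoters or on mitochondrial DNA itself. Their log2 fold changes were -0.10, -0.04, -0.11 and 0.08, with edgeR adjusted p of 0.551, 0.804, 0.364 and 0.542. Every treated library lay below the untreated ones for Nrf1 (22.8 to 25.3 CPM untreated, 22.1 to 22.7 treated). The same held for Tfam (38.9 to 40.3 untreated, 35.5 to 38.5 treated), as for 9.11% of all genes tested. Gabpa and Polrmt overlapped.

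Of the 13 proteins made by the mitochondrial ribosome, 1 was called lower and 0 higher. It was mt-Nd6, a subunit of complex I read from the other strand of mitochondrial DNA than the rest, with 250, 294 and 187 CPM untreated and 75.2, 92.5, 114 and 117 treated (log2 fold change -1.29, adjusted p = 0.0319). Without a known strand setting, its reads and those of the opposite strand cannot be told apart. The median over the 13 was 0.03. Nuclear-encoded subunits of the respiratory chain and ATP synthase join those proteins in the complexes. Of these 78 subunits, 17 were called higher and 0 lower by edgeR, against 3.58% and 3.57% of all genes tested. Their median was 0.14 and 70 were above 0, against 49.3% of all genes. Among those called were Uqcrq (0.34) and Uqcr10 (0.38) of complex III, Cox7a2 (0.31) of complex IV and Atp5h (0.28) of ATP synthase. All 4 changed sign on deposited TPM, where the median over all genes was -0.31 on log2(TPM + 1). They lost their call on rescaled TPM, with limma adjusted p of 0.32, 0.122, 0.143 and 0.172, where only 1.83% of all genes were called. The direction was kept there, with rescaled means of 365, 792, 489 and 400 untreated and 432, 989, 602 and 479 treated. Cytosolic ribosomal proteins had 0 of 80 tested called by edgeR, with a median of 0.05. At an unadjusted p under 0.05, 17 were higher and 2 lower, where 10.4% of all genes tested passed in each direction. The cytosolic list was taken by symbol (Rpl or Rps and a number), which also takes in related symbols such as Rps19bp1 and Rpl7l1. The differences between these lists and the mitoribosomal genes were not tested.

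**Figure D5:**
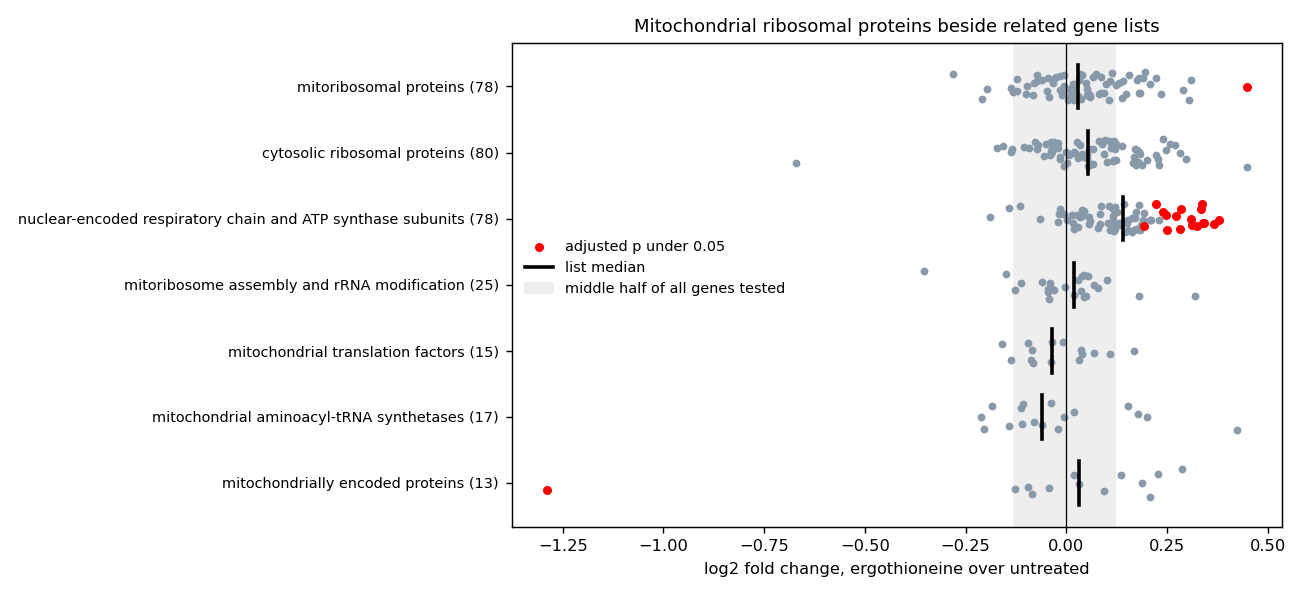
Log2 fold change of each gene (points) in the mitoribosomal genes and 6 related lists, with list medians as bars, the interquartile range of all genes tested as a grey band and called genes in red. The mitoribosomal list has 1 red point, Mrps24, the respiratory chain list 17, all above 0, and the mitochondrially encoded list 1, mt-Nd6 at -1.29.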

How the data were processed

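Total RNA of whole kidney was depleted of ribosomal RNA and made into stranded libraries, per the labels' protocols. The authors deposited expected counts and TPM per Ensembl gene. STAR 2.7.10a, RSEM 1.3.1 and Salmon 1.10.1 and the builds GRCm38 and mm10 stand in the submitters' processing notes without role or setting, and neither the annotation release nor the strand setting of the counting is given in the sources used here. Of the deposited counts 3.61% were not whole, and of those of the members 5.86%, in 9 genes, so some reads were divided between genes. The deposited TPM moves with short non-coding RNA.

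Counts were rounded, filtered with filterByExpr, scaled by TMM and tested with edgeR 4.0.16 (robust quasi-likelihood F test, R 4.3.3) over 15399 genes, with Benjamini-Hochberg adjusted p called under 0.05. The code was tested on simulated data. The standard error is the log2 fold change over the root of F. The median standard error was 0.11 over all genes and 0.09 over the members, at totals of 14843899 to 19791575 counts. The 20 alternatives included DESeq2 1.42.0, limma-voom and limma-trend (limma 3.58.1) on TPM. Members named with values were those called, the 3 highest and 3 lowest fold changes per subunit, the 4 highest and 4 lowest TPM, and 12 set by role. Mrpl43, Mrpl40, Mrps6, Mrpl30 and Mrpl53 fall outside that rule and were chosen with their values known. The members, lists, motifs and tests were chosen with earlier results of these data known. The NRF1 letters (shortened by 1 base) and the lowest fold limit for intervals (lowered to 1.2) were changed after values at the first setting had been seen. Those first values are not given here. Symbols and positions came from GENCODE M21, which held 45143 of the 45706 identifiers, and promoter sequences from RefSeq (GRCm38.p6). Per the labels, columns were matched to libraries by name.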

Additional observations from a re-analysis of the deposited data

Results flagged for a closer look

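Among 52 groups of 4 treated values looked at, for the named members and related genes, 3 held a library far from the others by Dixon's gap ratio, and chance flags about 1 in 20. Mrpl57 stood at 22.6 CPM in ergothioneine 3, against 18.3, 17.7 and 17.9 in the other treated libraries (gap ratio 0.871). Mrpl38 stood at 33.3 CPM in ergothioneine 4, against 38.0, 38.8 and 38.4 (0.862). Ptcd3, a small-subunit protein with an RNA-binding repeat, stood at 39.4 CPM in ergothioneine 3, against 34.1, 34.1 and 33.5 (0.891). Ergothioneine 3 also held the highest value of 22 of the 78 members. Liver markers (Alb and Apoa1) summed to 38.2 CPM there, against 12.6 to 13.9 untreated and 8.29 to 12.9 in the other treated libraries. The part of liver RNA in the values of ergothioneine 3 was not tested.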

How the results depend on the processing

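The count of 1 member called higher and 0 lower was also given by DESeq2, limma-voom, and RLE and upper quartile scaling. Counts without mitochondrial and haemoglobin genes, rescaled TPM and the library index block gave it too. Over all genes, RLE scaling called 3.52% higher and 3.58% lower, and upper quartile scaling 3.81% and 3.39%. Without mitochondrial and haemoglobin genes the shares were 3.61% and 3.65%, and with the index block 2.94% and 3.05%. Rescaled TPM called only 0.88% and 0.945% of all genes. At an adjusted p under 0.1, 3 members were higher and 1 lower (5.67% and 5.64% of all genes). With at least 10 counts in all libraries, 2 were higher (Mrps24, Mrpl14; 4.13% of all genes), and with no filter beyond 1 count, 2 were higher (Mrps24, Mrpl57; 3.17% of all genes) and 1 lower (Mrps9; 2.74%). Without untreated libraries 1 and 2, the median log2 fold change of the members was 0.10, against 0.03 as reported. The spread of the lone untreated library was there assumed to be that of the treated ones. With single libraries left out, 1 member was higher throughout (2.29% to 3.37% of all genes) and 0 to 1 were lower (2.21% to 3.86%). The median over the members then ran from 0.0034 to 0.07. On log2(TPM + 1) of the deposited TPM, 0 were higher and 3 lower (Mrpl48, Mrps5, Mrps9; 9.64% of all genes), with a median of -0.32 beside -0.31 over all genes, and with a pseudocount of 0.1 again 0 and 3, with a median of -0.34 beside -0.37. On that scale 1 of 78 members was above 0, and 17 of 29 named members changed sign. Uqcrq went to -0.13 with either pseudocount, Uqcr10 to -0.0551 (0.1) and -0.055 (1), Cox7a2 to -0.0758 (0.1) and -0.0756 (1), and Atp5h to -0.12. Pprc1 went to 0.0941 on rescaled TPM, and the cause was not tested.

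With the replicate number of the titles as a replicate block, 1 member was higher and 0 lower (2.57% and 2.68% of all genes), the median was 0.05 and Mrps24 had an adjusted p of 0.00555. Same-numbered libraries correlated at 0.03, -0.07 and 0 in their deviations, which showed no pairing by number but cannot exclude it. With 3 and 4 libraries, the depth and spread left a 1.2-fold change within the interval of many members.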
